A study of Mus musculus with 14 samples.

Results

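The genes examined here were 7 genes of the retinal pigment epithelium, Mitf, Otx1, Tyr, Tyrp1, Dct, Rpe65 and Best1, out of 22367 protein-coding genes annotated on mm9 (GENCODE vM1). They were chosen by name, and the values are the E14 H3K27ac peaks that overlapped each gene body extended by 20 kb on either side. The study compared retinal progenitor cells of the mouse at embryonic day 14 (E14) and postnatal day 2, with and without the transcription factor Lhx2, by RNA-Seq, ATAC-Seq and ChIP-Seq. The sample used was a single one of 14, the E14 H3K27AC ChIP-seq of the CD1 strain, whose title names no knockout and for which 2 ChIP libraries were pooled and set against 1 isotype control library. Its labels name retinal progenitor cells, whereas the study's methods describe ChIP on whole dissected retinas, which hold postmitotic neurons as well. CD1 mice are albino, so their pigment cells make no melanin. After filtering, the ChIP held 113543038 tags and the control 9210563, and 13463 peaks were called. The pooled list of peaks carries no replicate values, so no replicate error or test can be given for any value below.

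H3K27ac is acetylation of lysine 27 of histone H3, a mark found at active promoters and enhancers. The pigment epithelium is a single layer of cells that lies against the photoreceptors and arises from the same optic cup as the neural retina. It is specified by the transcription factors MITF and OTX, it makes melanin with the enzymes encoded by Tyr, Tyrp1 and Dct, and its mature cells recycle retinoid with RPE65 and carry the chloride channel bestrophin encoded by Best1. MITF binds an extended E-box, the M-box, in the promoters of the melanin genes.

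Of the 7 genes, only Otx1 had an E14 H3K27ac peak of its own. A TSS peak, one that overlaps the 1000 bp on either side of any annotated transcript start (TSS), was present at 1 of 7 genes, against 49.8% of all protein-coding genes. A peak anywhere in the extended gene body was present at 2 genes, Otx1 and Best1, against 63.5% of all protein-coding genes, but both peaks near Best1 lay over the starts of its neighbours. When peaks within 1000 bp of a start of another gene were set aside, Otx1 remained alone, against 39.8% of all protein-coding genes. Mitf, Tyr, Tyrp1, Dct and Rpe65 had no peak in the gene body or within 20 kb of it. Of the 22 distinct transcript starts of the 7 genes, 4 lay inside a peak, and all 4 were starts of Otx1 under the same peak. Counted by gene, 1 of 7 genes had a start inside a peak, against 44.2% of all protein-coding genes. No test was made of these shares, since the 7 genes were chosen by name.

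**Figure D1:**
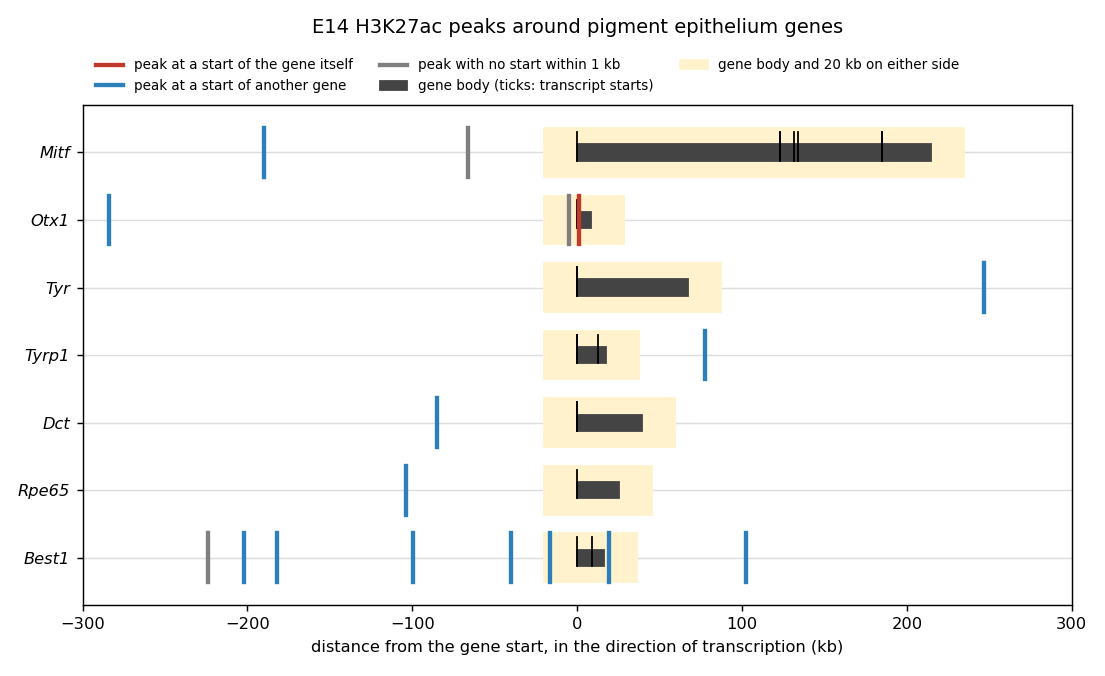
Peaks within 300 kb of the start of each gene, by distance from the gene start in kb in the direction of transcription, with dark bars for gene bodies, ticks for transcript starts and shaded boxes for the gene body with 20 kb on either side. Only the boxes of Otx1 and Best1 hold peaks, and those in the Best1 box lie at starts of other genes.

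Promoter sequences of the members without a TSS peak are shown because MITF and OTX factors are known to act through sites in promoters of pigment genes, and these starts were not called as acetylated. Of the windows at 3 Mitf starts, the first and the last are shown and hold none of the motifs searched. They are the 250 bases before the RefSeq transcript start (RefSeq table of GRCm38.p6), and each was found once in mm9 by an exact match, from which the positions are taken. 6 of the 7 members were in the table, and Otx1 was not. Capitals mark the M-box, taken here as the longest run around CATGTG that Tyr, Tyrp1 and Dct share, GTCATGTGCT, and further copies of the E-box CATGTG, the E-box CACGTG and the OTX core TAATCC, each searched on both strands.
Tyr, chr7:94642023-94642272, minus strand: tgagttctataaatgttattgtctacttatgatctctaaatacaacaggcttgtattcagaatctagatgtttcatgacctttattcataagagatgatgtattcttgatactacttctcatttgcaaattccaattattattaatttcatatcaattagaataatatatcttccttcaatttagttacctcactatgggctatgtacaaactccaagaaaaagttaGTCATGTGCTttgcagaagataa
Tyrp1, chr4:80480059-80480088, plus strand: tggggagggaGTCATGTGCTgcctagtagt
Dct, chr14:118451469-118451718, minus strand: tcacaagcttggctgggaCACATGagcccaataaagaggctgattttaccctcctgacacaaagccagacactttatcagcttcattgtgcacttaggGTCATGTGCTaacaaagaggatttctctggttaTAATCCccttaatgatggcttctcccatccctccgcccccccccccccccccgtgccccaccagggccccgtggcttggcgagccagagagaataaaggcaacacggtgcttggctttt
Rpe65, chr3:159261895-159262144, plus strand: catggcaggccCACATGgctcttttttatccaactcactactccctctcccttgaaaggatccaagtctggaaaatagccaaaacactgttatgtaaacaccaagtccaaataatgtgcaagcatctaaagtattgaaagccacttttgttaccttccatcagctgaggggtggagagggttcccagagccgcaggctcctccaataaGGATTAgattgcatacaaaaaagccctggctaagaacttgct
Best1, chr19:10076124-10076373, minus strand: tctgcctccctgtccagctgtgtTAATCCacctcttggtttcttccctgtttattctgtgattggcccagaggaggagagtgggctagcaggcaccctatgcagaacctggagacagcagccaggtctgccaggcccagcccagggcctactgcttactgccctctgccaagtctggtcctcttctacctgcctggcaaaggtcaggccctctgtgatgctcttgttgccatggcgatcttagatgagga
Mitf, first start, chr6:97756802-97757051, plus strand: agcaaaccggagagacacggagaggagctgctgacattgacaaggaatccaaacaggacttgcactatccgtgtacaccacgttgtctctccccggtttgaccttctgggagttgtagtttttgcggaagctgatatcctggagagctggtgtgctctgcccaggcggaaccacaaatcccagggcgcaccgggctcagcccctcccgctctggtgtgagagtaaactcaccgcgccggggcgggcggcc
Mitf, last start, chr6:97941527-97941776, plus strand: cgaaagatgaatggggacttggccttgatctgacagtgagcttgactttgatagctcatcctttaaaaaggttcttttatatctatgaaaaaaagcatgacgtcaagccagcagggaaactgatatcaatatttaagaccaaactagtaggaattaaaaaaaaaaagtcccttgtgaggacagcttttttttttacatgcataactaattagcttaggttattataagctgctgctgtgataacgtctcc
For Tyrp1 only 30 bases around the M-box are shown, at positions -58 to -29 of its RefSeq start, because another annotated transcript starts farther upstream. The M-box was found at positions -23 to -14 of Tyr, -48 to -39 of Tyrp1 and -152 to -143 of Dct, counted from the RefSeq start. Its presence in these 3 genes follows from how it was defined. Among all 32851 promoter windows of this length in the table, 0.155% held it. Beyond Tyr, Tyrp1 and Dct, 18 protein-coding genes of the annotation held it, and 1 of the 18 had a TSS peak, against 49.8% of all protein-coding genes and 19.1% of those whose starts hold few CpGs (fewer than 0.6 of the number expected). Of 19 other pigment genes in the table, which are described further on, 0 held the M-box and 6 held CATGTG, against 13.8% of all genes in the table for CATGTG. Outside the M-box, CATGTG was found once more in Dct and once in Rpe65, and 12.3% of all windows held it. The OTX core was found in Dct, Rpe65, Best1 and the window of a middle start of Mitf that is not printed, and 6.25% of all windows held it. CACGTG was found in none of the members, against 6.02% of all windows. A match of letters does not show that a factor binds there.

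Otx1, a homeobox gene needed for the ciliary margin and used also by neural progenitors, was the only regulator among the 7 genes with a peak. It occupies 21894767 to 21902900 of chromosome 11 (minus strand, ENSMUSG00000005917.8). The TSS peak ran from 21900488 to 21903139, a length of 2652 bp, and covered all 4 annotated starts and 29.7% of the gene body. Its mean pileup, the number of overlapping ChIP fragments per base on the scale of the smaller control library, was 15.04, where the control's fragments spread evenly over the genome would give 1.07. Its fold enrichment over the isotype control was 3.9 (q = 9.45e-05). The peak was long for its height, since it lay at percentile 96.0 of all 13463 peaks by length and at percentile 49.9 by pileup. By fold enrichment it lay at percentile 29.3. Among the 11147 protein-coding genes with a TSS peak, for which the median of the longest TSS peak was 1137 bp, Otx1 lay at percentile 95.5 by length. When only peaks enriched 4-fold or more with a q of 0.001 or less were kept, the peak was lost, by its fold enrichment alone. Then 0 of 7 members had a TSS peak, against 37.8% of all protein-coding genes. The study's methods name this stricter pair of limits, among others, for peaks found in replicates. Here they were applied to averages over each peak of a pooled list. Under these limits the only peak left in the 7 extended gene bodies was the one near Best1 over Fth1, and 52.2% of all protein-coding genes had a peak.

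A further peak lay 4.04 kb upstream of the Otx1 start, from 21906938 to 21908598, in sequence with no annotated start within 1000 bp. It was 1661 bp long, with a pileup of 8.05 and a fold enrichment of 3.81 (q = 0.00728). This flanking peak was in the upper part of the list by length (percentile 82.7) and near the bottom by pileup (percentile 5.87). Both peaks together covered 4313 bp, or 8.96%, of the extended gene body. No protein-coding gene other than Otx1 starts within 100 kb of its start.

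Mitf, the basic helix-loop-helix zipper factor that specifies pigment cells, had no peak over its whole length. It occupies 97757052 to 97971352 of chromosome 6 (plus strand, ENSMUSG00000035158.8), with 7 distinct starts spread over 185 kb. The upstream starts belong to forms used in the pigment epithelium and many other tissues, and the last belongs to the form of melanocytes. None of the 7 starts had a peak within 1000 bp. The first start lay 65.8 kb from the nearest peak, the starts in the middle 173 to 184 kb, and the last starts 122 kb. The nearest peak was upstream, from 97690814 to 97691273, with a length of 460 bp, a pileup of 8.23 and a fold enrichment of 3.45. Another lay 92.5 kb downstream of the gene, 1177 bp long with a pileup of 6.72. Both had no annotated start within 1000 bp, and their pileups were below the median of all peaks, 15.1.

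The 3 genes of melanin synthesis had no peak within 50 kb. The stretches free of peaks that held their starts were ranked among the 11132 protein-coding genes without a TSS peak for which the stretch is bounded by peaks, where the median was 366 kb. Tyr, the tyrosinase gene that carries the albino mutation, occupies 94574910 to 94641943 of chromosome 7 (minus strand, ENSMUSG00000004651.4). Its starts were 246 kb or more from the nearest peak, which was 568 bp long with a pileup of 14.24 and lay at the start of Nox4. The stretch at the Tyr start was 883 kb long (percentile 69.6). Tyrp1, whose product stabilises tyrosinase, occupies 80480027 to 80497623 of chromosome 4 (plus strand, ENSMUSG00000005994.8). The nearest peak was 64.5 kb from its last start, at the start of D4Bwg0951e, with a length of 1307 bp and a pileup of 14.81. The stretch at the first Tyrp1 start was 4460 kb long (percentile 95.6). Dct, the gene of dopachrome tautomerase and an early marker of pigment cells, occupies 118412014 to 118451468 of chromosome 14 (minus strand, ENSMUSG00000022129.2). The nearest peak was 84.9 kb upstream at the start of Gpr180, with a length of 511 bp and a pileup of 15.57, and the stretch at the Dct start was 1080 kb long (percentile 73.7). For Mitf the stretch was 373 kb long (percentile 50.4). The nearest peaks to all 3 genes thus all lay at starts of other genes.

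The genes of mature pigment epithelium had no peak of their own either. Rpe65, the isomerase of the visual cycle, occupies 159262197 to 159287763 of chromosome 3 (plus strand, ENSMUSG00000028174.8). The nearest peak was 103 kb upstream at the start of Depdc1a, 1026 bp long with a pileup of 9.56, and it was the last peak on the chromosome, 441 kb from its end. Best1 occupies 10059664 to 10076123 of chromosome 19 (minus strand, ENSMUSG00000037418.5). It has 4 protein-coding genes starting within 100 kb of its start, more than any other member but equal to the median of all protein-coding genes. A peak 1887 bp past its downstream end, from 10056474 to 10057777, covered a start of Fth1, the gene of ferritin heavy chain, with a length of 1304 bp, a pileup of 16.22 and a fold enrichment of 4.16 (q = 1.88e-05). A weaker peak 16.2 kb upstream, from 10092277 to 10093056, covered a start of Rab3il1, with a length of 780 bp, a pileup of 9.17 and a fold enrichment of 3.71 (q = 0.00599). Neither lay within 1000 bp of a Best1 start. Within 100 kb of the gene body, all 5 peaks around Best1 were at starts of other genes, the others being Incenp, Fads3 and Fads2.

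With the flank of all 7 genes widened to 100 kb, peaks were present at 5 members, Mitf, Otx1, Tyrp1, Dct and Best1, against 79.7% of all protein-coding genes. Peaks away from the starts of other genes were then present at 2 members, Mitf and Otx1, against 50.1% of all protein-coding genes. With no flank, Otx1 was the only member with a peak, against 50.6% of all protein-coding genes.

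**Figure D2:**
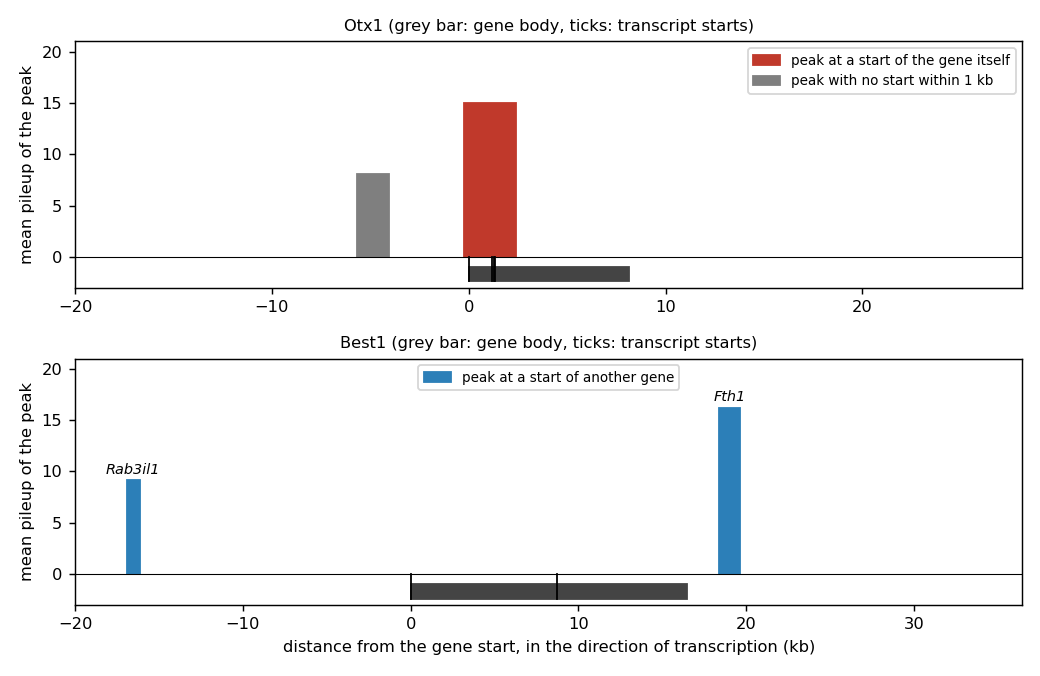
Peaks in the extended gene bodies of Otx1 and Best1, by distance from the gene start in kb, with the height of each box giving the mean pileup of the peak. The Otx1 peak of pileup 15.04 spans the transcript starts, whereas the Best1 peaks of 16.22 and 9.17 lie at Fth1 and Rab3il1 on either side of the gene.

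Distance to the nearest peak did not set the members without a TSS peak apart. Over all protein-coding genes without a TSS peak the median distance from a start to the nearest peak was 74.8 kb. Best1, at 9.63 kb, and Tyrp1 and Mitf, at 64.5 and 65.8 kb, were nearer than this, and Dct, Rpe65 and Tyr, at 84.9, 103 and 246 kb, were farther. An absent peak means that no enrichment passed the caller's limits. The lowest fold enrichment in the list was 2.06 and the shortest peak 313 bp, and weaker or shorter acetylation would not be listed. Because peaks were called by q, acetylation enriched above 2.06 could go unlisted too. In a mixed tissue, acetylation in a few cells and a low level in all cells cannot be told apart, and the share of pigment epithelium cells in the dissection was not measured.

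The members fell into a CpG-rich pair and 5 CpG-poor genes. The CpG ratio, the number of CG pairs over that expected from the base composition within 500 bp of the gene start, was 0.776 at Otx1 and 0.664 at Mitf. It was 0.275 at Dct, 0.166 at Tyr, 0.125 at Tyrp1, 0.0998 at Best1 and 0.0296 at Rpe65. Of all protein-coding genes with a ratio under 0.6, 19.1% had a TSS peak, as against 86.4% of those at or above it. Of the 5 members under 0.6, 0 had a TSS peak. In steps of 0.1, a TSS peak was present at 2.37% of the genes in the step of Rpe65 and Best1, 5.18% in that of Tyr and Tyrp1, and 12.2% in that of Dct. These 5 genes thus lay in steps where most genes have no TSS peak. Mitf, which had none, lay in a step where 74.3% of the genes have one. Otx1 had a peak, as did 86.3% of the genes in its step.

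**Figure D3:**
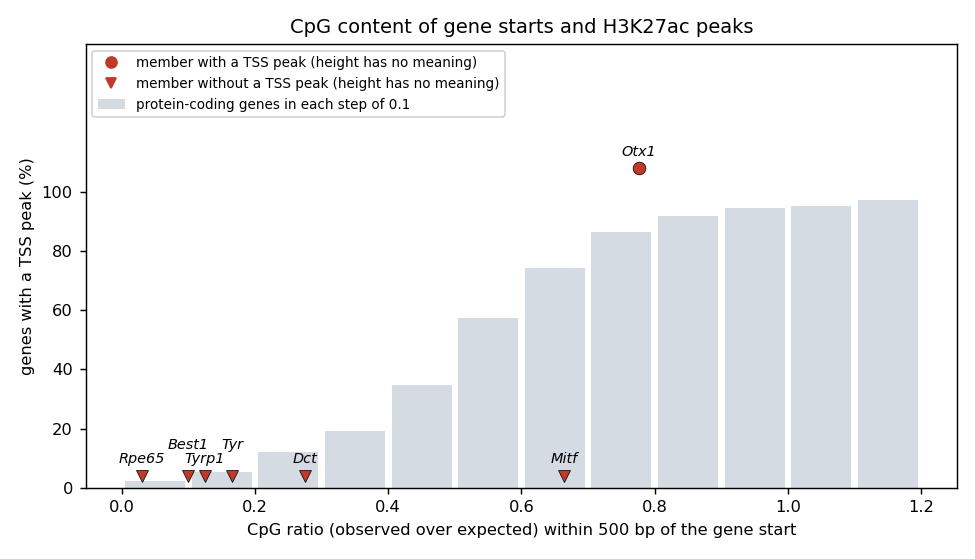
Share of protein-coding genes with a TSS peak (%) in steps of 0.1 of the CpG ratio at the gene start, with the members marked at their own ratio. Tyr, Tyrp1, Dct, Rpe65 and Best1 lie where under 20% of genes have a peak, and Mitf, by its first start, lies where 74.3% do.

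Other genes of pigment cells and of the pigment epithelium were compared, from a list of 28 genes for melanosomes, retinoid handling, transport and adhesion. The list is not specific to pigment cells, since Otx2, Rlbp1, Rgr, Trpm3 and Mertk are also used by neural retina cells. A TSS peak was present at 5 of the 28 genes, or 17.9%, against 49.8% of all protein-coding genes. The CpG ratio is that of the gene start, whereas a TSS peak can lie at any annotated start. By this ratio 26 of the 28 genes were CpG-poor (under 0.6), and these held all 5 genes with a TSS peak. That share is near the 19.1% of all CpG-poor genes. For 2 of the 5 genes the peak was at a start of a neighbour. The peak near Pmel, the gene of the melanosome matrix protein, lay 0.752 kb from its start and also near that of Cdk2 (1261 bp, pileup 14.56), and the peak near Rdh5, a retinol dehydrogenase gene, lay 0.224 kb from its start and also near that of Bloc1s1 (521 bp, pileup 17.59). The remaining 3 were Otx2, Trpm3 and Stra6. Otx2, the paralogue of Otx1 that photoreceptor precursors use as well, had a peak of 2411 bp with a pileup of 11.14 and a fold enrichment of 4.03. Trpm3, a cation channel gene that is also active in the brain and the neural retina, had a peak of 3595 bp with a pileup of 10.37. Stra6, which encodes the receptor for retinol binding protein, had 2 TSS peaks. The longer was 1316 bp with a pileup of 9.02 and a fold enrichment of 4.03. The CpG ratio at the gene start of Stra6 was 0.153. No TSS peak was present at the other 23 genes. These were the melanosome and pigment genes Oca2, Slc45a2, Slc24a5, Mlana, Gpr143, Rab38, Rab27a and Mlph, the MITF relative Tfec, the retinoid and opsin genes Lrat, Rlbp1, Rgr and Rrh, and the channel, transport, secretion, phagocytosis and adhesion genes Trpm1, Slc16a8, Serpinf1, Clic6, Enpp2, Mertk, Krt8, Krt18, Cdh1 and Cdh3. Of these 23, Krt8 alone had a peak elsewhere in the extended gene body that was not at a start of another gene. Of all 28 genes, 15 had a peak in the extended gene body, against 63.5% of all protein-coding genes. In 4 of the 28 genes a peak lay away from starts of other genes, against 39.8% of all protein-coding genes.

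The labelled tissue was checked with 11 genes of the neural retina, Rax, Pax6, Six3, Six6, Lhx2, Sox2, Hes1, Fgf15, Sfrp2, Ccnd1 and Atoh7, and all 11 had a TSS peak, against 49.8% of all protein-coding genes. Of the 11 genes 9 were CpG-rich, a class in which 86.4% of all genes have a TSS peak, so the count alone says little of the tissue. For 5 of the 11, every TSS peak also lay within 1000 bp of a start of another gene. By the longest TSS peak of each gene, lengths spanned 1088 to 32865 bp around a median of 5816 bp, and pileups spanned 12.28 to 20.15. The peak at Six6 was 2395 bp long with a pileup of 20.15, that at Rax was 6096 bp with 15.42 and that at Pax6 was 32865 bp with 14.59. The TSS peak of Otx1, at 2652 bp and 15.04, was within these ranges. Its fold enrichment of 3.9 was almost the same as the lowest of the 11, 3.91 at Fgf15, and the highest was 5.29 at Lhx2. The stricter limits kept a TSS peak at 10 of the 11 genes, all but Fgf15, and at 4 of the 5 other pigment genes that had one. They did not keep that of Otx1. Of all protein-coding genes, 8465 had a TSS peak under these limits and 11147 without them. Other cells that a dissection could carry along were checked with 20 genes of melanocyte precursors, lens, vessels, erythroid cells, microglia and periocular mesenchyme. A TSS peak was present at 3 of these, Kit, Kdr and Klf1, of which neural retina cells are known to use Kit and Kdr too. Of these 20 genes 14 were CpG-poor, of which 1 had a TSS peak against 19.1% of all CpG-poor genes, and 6 were CpG-rich, of which 2 had one against 86.4% of all CpG-rich genes. No TSS peak was present at the melanocyte precursor genes Sox10, Pax3 and Ednrb, the lens genes Cryaa, Cryba1, Crygs and Foxe3, the vessel genes Pecam1, Cdh5 and Tek, the erythroid gene Alas2, the microglia genes Csf1r, Aif1 and Cx3cr1, or the mesenchyme genes Foxc1, Col1a1 and Twist1. None of 6 liver genes, Alb, Afp, Apoa1, Fga, Fgb and Tat, had one, and all 6 were CpG-poor, so that their count too stands beside 19.1%. A peak in the extended gene body was present at 3 of the 6, against 63.5% of all protein-coding genes. For Afp and Apoa1 this peak was away from starts of other genes, and 39.8% of all protein-coding genes had such a peak. Of the 20 genes of other cell types, 7 had a peak in the extended gene body, against 63.5%. In 3 of the 20 genes a peak lay away from starts of other genes, against 39.8%. The stricter limits kept none of the 3 TSS peaks at Kit, Kdr and Klf1. The starts of the 11 neural retina genes had CpG ratios of 0.506 to 0.841, whereas those of 5 of the 7 members lay at 0.0296 to 0.275, so the counts of 11 of 11 and 1 of 7 come from starts of unlike CpG content. No test was made of these counts.

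**Figure D4:**
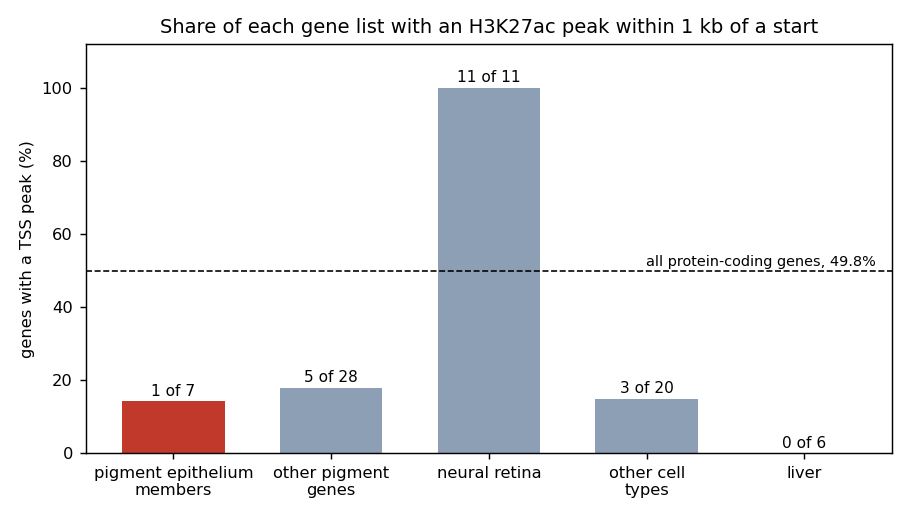
Share of genes with a TSS peak (%) in the 7 members and in the 4 comparison groups, with the number of genes above each bar and a dashed line at 49.8% for all protein-coding genes. The members (1 of 7), the other pigment genes (5 of 28), the genes of other cell types (3 of 20) and the liver genes (0 of 6) lie below the line. Only the neural retina genes (11 of 11) lie above it. The line does not allow for CpG content. Of CpG-poor genes 19.1% have a TSS peak, and 5 of the 7 members, 26 of the 28 other pigment genes, 14 of the 20 genes of other cell types and all 6 liver genes are CpG-poor.

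**Figure D5:**
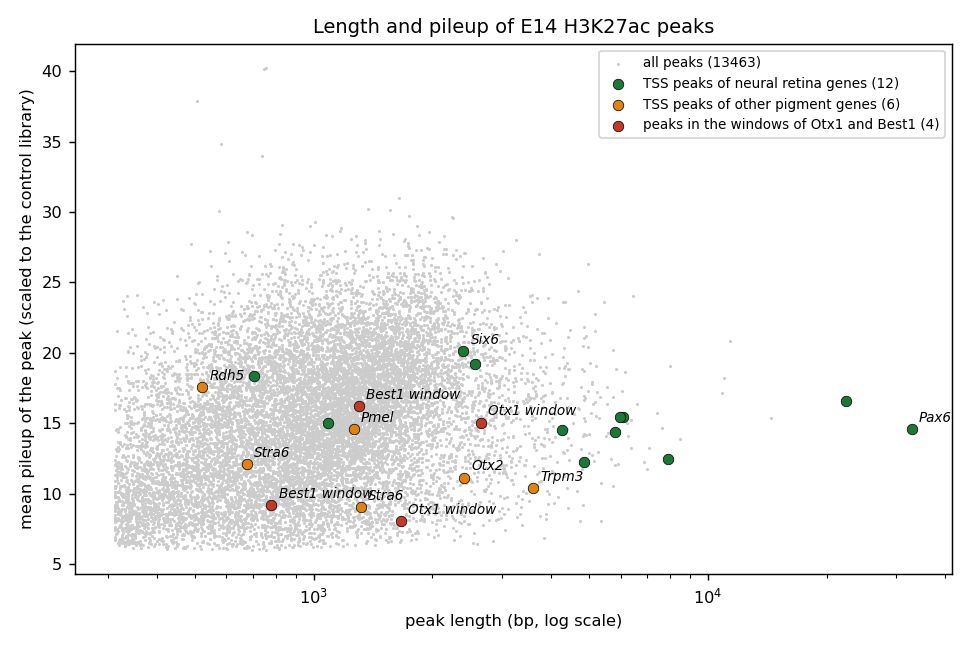
Length (bp, log scale) against mean pileup of all 13463 peaks, with the peaks in the extended gene bodies of Otx1 and Best1 and the TSS peaks of the neural retina and other pigment genes marked. The Otx1 TSS peak (2652 bp, 15.04) lies among those of the neural retina genes by length and pileup. Its flanking peak (1661 bp, 8.05) lies at the lower edge. Fold enrichment is not drawn. It was 3.9 at the Otx1 TSS peak and 3.91 at Fgf15, the lowest of the neural retina genes.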

How the data were processed

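The study's methods describe ChIP on whole retinas with an antibody to H3K27ac, whereas the sample's labels name retinal progenitor cells. The authors aligned the reads with Bowtie2 (mm9) and discarded those that did not map uniquely. They pooled 2 libraries and called broad peaks at a cutoff of 0.1 with MACS 2.1.0.20140616. After filtering, 113543038 ChIP and 9210563 control tags remained, per the file headers. The deposited pileup signal is the mean over each peak after scaling to the control, the deposited fold enrichment is its ratio to the local background, and the deposited -log10 p and q values are means over each peak. The files give each peak's length in bp.

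Peaks were overlapped (1 bp or more) with GENCODE vM1 genes and starts on mm9, the same assembly, and 0 peaks ran past a chromosome end. q values printed here are back-transformed. Percentiles count ties at their middle. Members and lists were chosen with earlier results of these data known, the motifs after the promoters were read, and the flank of 100 kb for peaks away from other starts after the data were seen. All 7 members and all of their peaks are named. From the list of other pigment genes, values are given for the genes with a TSS peak. A few genes of the comparison lists are not reported here, for a reason unrelated to their values, and the counts leave them out. Tfec is named Tcfec in the annotation. Interval code was tested on simulated peaks. Python 3.11.15, numpy 2.4.6, pandas 2.3.3 and matplotlib 3.10.9 were used. The other 13 samples were not analysed here.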

Additional observations from a re-analysis of the deposited data

How the results depend on the processing

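The TSS peak of Otx1 was found under 6 of the 7 alternatives, which changed the window, the set of starts, the q limit and the definition of overlap. With the stricter limits of 4-fold and q 0.001, 0 members had a TSS peak, 1 member (Best1) had a peak in the extended gene body and 1 peak remained, that over Fth1. Within the gene body alone (flank of 0 kb), 1 member (Otx1) had a peak, and there was 1 peak in all. With a flank of 100 kb, 5 members had a peak (Mitf, Otx1, Tyrp1, Dct and Best1) and there were 11 peaks, of which 7 lay at starts of other genes. At that flank, 2 members (Mitf and Otx1) had a peak away from starts of other genes, an alternative chosen after seeing the data. Flanks of 5 and 50 kb, a q of at most 0.01, midpoints and merging of neighbouring peaks left the counts within 1.5 times those given. No member with a CpG-poor start had a TSS peak at any of the 3 ratio limits, although Mitf counted as CpG-poor at 0.7. No paired analysis was possible because the replicates were pooled before peak calling, and for the same reason no replicate could be left out. Calls at other depths could not be made from a peak list, so the part of depth in absent peaks was not tested.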
